A study of Mus musculus with 12 samples.

Results

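Glycosaminoglycan chain synthesis enzymes were described in RNA-seq of cultured mouse mesangial cells (MMC), the contractile cells that hold the capillaries of the kidney glomerulus together. The members were 10 genes chosen by symbol: the xylosyltransferases Xylt1 and Xylt2, the chondroitin enzymes Csgalnact1, Chsy1, Chsy3 and Chpf, the sulfotransferases Chst11 and Chst3, and the heparan sulfate polymerases Ext1 and Ext2. They stand among 25230 genes that were counted, of which 18565 were seen in some library and 11529 were tested because a library or more held them above an RPKM of 1 (reads scaled by exon length and library size). All 10 members were counted in every library, and 9 passed the RPKM limit. Chst3, with 7 to 34 counts per library, did not pass, and its tests come from a fit over the 18565 genes seen.

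The MMC were primary cells of wild-type (WT) animals or of the lncMGC-KO5 line, in which Cas9 with guides on either side of the transcription start of lncMGC was injected into C57BL/6J embryos. lncMGC is a long non-coding RNA that hosts a large cluster of miRNAs. The cells were grown in medium with serum, and each genotype was either serum-depleted (SD) or treated with 10 ng/ml TGF-β for 24 h, which gave WT-SD and WT-TGF, KO-SD and KO-TGF, 4 groups of 3 libraries each. The glomeruli that gave the cells were pooled, and KO5 is a single line. A figure legend of the study calls the 3 samples of a group independent. Neither it nor the labels or methods say that they came from separate cultures. The p-values thus measure the spread between these libraries, which may be technical. Since genotype and cell preparation go together, they cannot be told apart here.

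Proteoglycans are core proteins that carry long sulfated sugar chains. Every chondroitin or heparan sulfate chain starts with a xylose that Xylt1 or Xylt2 puts on a serine of the core protein, followed by a short linker of galactose and glucuronic acid. The next sugar sets the kind of chain: N-acetylgalactosamine, added by Csgalnact1 or Csgalnact2, opens a chondroitin chain that Chsy1, Chsy3 and Chpf lengthen, and N-acetylglucosamine opens a heparan chain that Ext1 and Ext2 lengthen. Sulfotransferases then decorate the chain. In the glomerulus such chains sit on perlecan, biglycan, versican and the syndecans, in the mesangial matrix and the filtration barrier, and TGF-β is known for raising matrix proteoglycan synthesis in mesangial cells.

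Depth ran from 19898050 to 22827706 gene counts per library. Within groups, counts of library pairs differed by more than sampling noise, with chi-square values divided by their degrees of freedom of 1.35 to 5.41, and the highest values belonged to KO-SD replicate 1 against the others of its group. The mesangial markers Pdgfrb (288 to 384 mean CPM, the read count scaled by library size) and Acta2 (1567 to 6288) were high in all 4 groups, whereas Des had 7.67 CPM in WT-SD and 0.529 in KO-SD, Itga8 lay between 0.638 and 3.05 and Thy1 and Agtr1a were at or near 0. lncMGC itself was not analysed here. Mirg, a transcript of the same locus beyond the deleted part, had a mean of 2.33 ± 0.308 CPM (SD, n = 3) in WT-SD and 3.67 ± 0.547 in KO-SD, 1.60-fold higher in the libraries labelled KO (FDR = 6.51e-05 without the RPKM limit). The counts used here thus do not check the KO label, and KO names the label throughout. Library sizes were scaled by TMM, and without that scaling the median log2 fold change of all genes moved to −0.16 with TGF-β in WT, −0.23 with TGF-β in KO and −0.13 for KO against WT with TGF-β. All changes are therefore relative to the TMM scaling.

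With TGF-β in WT MMC, 7 of the 10 members rose and 1 fell at FDR <5%, taken from the quasi-likelihood test of edgeR after Benjamini-Hochberg adjustment. Of all genes tested, 36.0% rose and 36.4% fell. Fold changes >2 upward were found for 4 members, Xylt1, Chsy1, Chst3 and Chst11, against 4.14% of all genes. In the libraries labelled KO, 7 members rose and 3 fell, against 34.9% and 39.1% of all genes, and the genes with fold change >2 upward were again those 4, against 4.37% of all genes. Over the 9 members tested the median log2 fold change was 0.78 in WT and 0.43 in KO, beside -0.0050 and -0.025 over all genes.

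**Figure D1:**
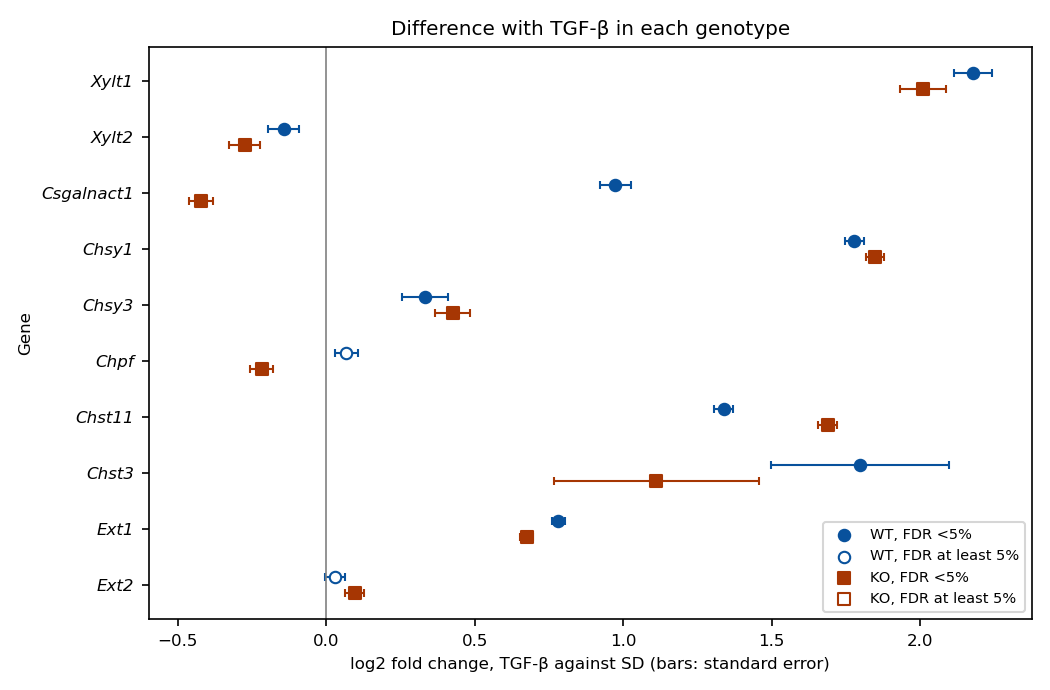
Log2 fold change with TGF-β against SD (x axis) of each of the 10 genes (y axis) in WT (circles) and in the libraries labelled KO (squares), with bars for the standard error, and open symbols where FDR was at least 5%. Csgalnact1 lies to the right of 0 in WT and to the left in KO, and the small values of Chpf and Ext2 in WT and of Ext2 in KO change sign without TMM scaling.

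Xylt1 rose most among the members. It had 11.3, 11.9 and 9.83 CPM in the WT-SD libraries and 49.4, 51.5 and 48.7 in WT-TGF. In the libraries labelled KO it had 7.44, 7.72 and 6.79 CPM in SD and 28.9, 27.5 and 32.0 with TGF-β. All TGF-β libraries lay above all SD libraries, and within each condition all KO libraries lay under all WT libraries. The log2 fold change with TGF-β was 2.18 ± 0.064 (SE) in WT, a 4.52-fold rise (FDR = 2.49e-23), and 2.01 ± 0.078 in KO, a 4.03-fold rise (FDR = 2.33e-20). KO was 1.51-fold lower than WT in SD (log2 -0.59 ± 0.092, FDR = 2.06e-06) and 1.69-fold lower with TGF-β (log2 -0.76 ± 0.056, FDR = 5.31e-13). Thus the level differed between genotypes in both conditions, while the difference between the TGF-β responses was -0.17 ± 0.11 on the log2 scale, with a 95% interval of -0.38 to 0.044 (FDR = 0.286).

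Xylt2, the other enzyme that can add the xylose, moved little. It had 28.0, 28.3 and 26.7 CPM in WT-SD and 23.9, 25.1 and 26.2 in WT-TGF. The KO libraries had 29.0, 31.0 and 30.9 CPM in SD and 25.3, 25.0 and 24.8 with TGF-β. In both genotypes the TGF-β libraries were the lower ones. The fall was 1.10-fold in WT (log2 -0.14 ± 0.052, FDR = 0.0157) and 1.21-fold in KO (log2 -0.27 ± 0.053, FDR = 3.28e-05). The call in WT was lost with no filter on low genes (FDR = 0.0928), without WT-SD replicate 2 (FDR = 0.0667) and without WT-TGF replicate 1 (FDR = 0.103). KO exceeded WT 1.10-fold in SD (FDR = 0.0286), a call lost with DESeq2 (FDR = 0.135), with library sizes alone (FDR = 0.375), with only the groups compared (FDR = 0.0847) and without WT-SD replicate 3, KO-SD replicate 2 or 3 or any of the KO-TGF libraries (FDR between 0.0721 and 0.119). With TGF-β the 95% interval of the difference was -0.11 to 0.11 on the log2 scale.

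Csgalnact1, which adds the first N-acetylgalactosamine and so opens a chondroitin chain, was the member whose TGF-β response differed most between genotypes. It had 25.2, 23.6 and 25.8 CPM in WT-SD and 47.8, 46.7 and 52.1 in WT-TGF. In KO it had 92.1, 83.5 and 87.5 CPM in SD and 65.3, 65.0 and 66.2 with TGF-β. TGF-β libraries were the higher ones in WT and the lower ones in KO, and every KO library lay above every WT library. The gene rose 1.96-fold in WT (log2 0.97 ± 0.051, FDR = 6.06e-17) and fell 1.34-fold in KO (log2 -0.42 ± 0.042, FDR = 1.93e-10). KO exceeded WT 3.53-fold in SD (log2 1.82 ± 0.047, FDR = 2.79e-24) and 1.34-fold with TGF-β (log2 0.42 ± 0.045, FDR = 1.90e-09). The response in KO was lower than that in WT by 1.40 ± 0.066 on the log2 scale (interaction, FDR = 1.32e-16), and none of the alternative settings run here changed the side or the call of any of these 5 values.

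The chain-lengthening enzymes were led by Chsy1, a chondroitin synthase. It had 96.8, 92.8 and 93.8 CPM in WT-SD and 327, 315 and 331 in WT-TGF. In KO it had 140.3, 127 and 133 CPM in SD and 475, 489 and 479 with TGF-β. The 4 groups did not overlap, and KO was the higher genotype in each condition. The rise with TGF-β was 3.43-fold in WT (log2 1.78 ± 0.032, FDR = 6.80e-29) and 3.60-fold in KO (log2 1.85 ± 0.031, FDR = 8.50e-30). KO exceeded WT 1.41-fold in SD (log2 0.50 ± 0.033) and 1.48-fold with TGF-β (log2 0.57 ± 0.029). The 2 responses differed by 0.070 ± 0.044 (95% interval -0.016 to 0.16, FDR = 0.271), and by 0.11 without KO-SD replicate 1, where the difference was called (FDR = 0.0360).

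Chsy3, a second chondroitin synthase, was the low member of the family and differed more between genotypes than with TGF-β. It had 9.37, 10.1 and 9.74 CPM in WT-SD and 12.7, 11.7 and 12.5 in WT-TGF, and in KO 22.3, 22.5 and 20.1 in SD and 30.2, 29.4 and 27.5 with TGF-β. Every KO library lay above every WT library, with or without TGF-β. KO exceeded WT 2.22-fold in SD (log2 1.15 ± 0.070, FDR = 6.79e-15) and 2.36-fold with TGF-β (log2 1.24 ± 0.066, FDR = 2.07e-16). The rise with TGF-β was 1.26-fold in WT (FDR = 3.88e-04) and 1.34-fold in KO (FDR = 1.82e-07), and the 95% interval of the difference between these responses was -0.10 to 0.29 on the log2 scale.

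Chpf, the polymerizing factor that works together with the synthases, stayed close to its WT-SD level. It had 103, 98.7 and 103 CPM in WT-SD and 106, 106 and 108 in WT-TGF. In KO it had 111, 122 and 130.1 CPM in SD and 103, 105 and 104 with TGF-β. KO-SD was the highest and the most spread of the groups, with KO-SD replicate 1 the lowest of its 3 libraries. The log2 fold change with TGF-β was 0.068 ± 0.039 in WT (FDR = 0.124). This was called as a rise with CPM >1 in 3 or more libraries (FDR = 0.0491), with no filter (FDR = 0.0117) and without KO-SD replicate 1 (FDR = 0.0480), and as a fall with library sizes alone (log2 −0.091, FDR = 0.0403). The gene fell by 0.22 ± 0.040 on the log2 scale in KO (FDR = 1.39e-05). The responses differed by -0.28 ± 0.056 (interaction, FDR = 2.11e-04). KO exceeded WT 1.19-fold in SD (FDR = 1.84e-06), and with TGF-β the difference was -0.031 ± 0.040 (FDR = 0.528), or −0.15 with library sizes alone, when it was called (FDR = 0.00161).

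Chst11 sulfates the N-acetylgalactosamine of chondroitin to give the A-type chain. It had 75.6, 73.6 and 71.7 CPM in WT-SD and 187, 186 and 185 in WT-TGF. In KO it had 69.5, 63.7 and 64.8 CPM in SD and 213, 214 and 212 with TGF-β. KO libraries were the lower ones in SD and the higher ones with TGF-β, with no overlap in either condition. The gene rose 2.53-fold in WT (log2 1.34 ± 0.032, FDR = 8.26e-26) and 3.23-fold in KO (log2 1.69 ± 0.032, FDR = 2.77e-28). The response in KO was larger by 0.35 ± 0.045 on the log2 scale (interaction, FDR = 4.23e-07). KO was 1.12-fold lower in SD (FDR = 3.17e-04) and 1.14-fold higher with TGF-β (FDR = 1.16e-06).

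Chst3, which gives the C-type sulfation, was barely expressed. It had 9, 12 and 8 counts in WT-SD, 32, 34 and 29 in WT-TGF, 7, 10 and 11 in KO-SD and 22, 19 and 12 in KO-TGF. The TGF-β libraries lay above the SD libraries in both genotypes. In the fit without the RPKM limit it rose 3.48-fold in WT (log2 1.80 ± 0.30, FDR = 7.09e-09) and 2.16-fold in KO (log2 1.11 ± 0.34, FDR = 0.00290). Between genotypes the 95% interval in SD was wide, -0.74 to 0.82 on the log2 scale, and no difference was detectable at this depth. With TGF-β KO was 1.57-fold lower (FDR = 0.0359), a call lost with DESeq2 (FDR = 0.206) and without any of the WT-TGF libraries (FDR between 0.0528 and 0.0813), KO-TGF replicate 2 (FDR = 0.0531) or KO-TGF replicate 3 (FDR = 0.274).

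Ext1 and Ext2 together form the heparan sulfate polymerase. Ext1 drew the most reads of the members, with 514, 517 and 515 CPM in WT-SD and 891, 880.5 and 885 in WT-TGF, and in KO 501, 511 and 487 in SD and 799, 799 and 795 with TGF-β. All TGF-β libraries lay far above all SD libraries. The rise was 1.72-fold in WT (log2 0.78 ± 0.022, FDR = 9.35e-24) and 1.60-fold in KO (log2 0.68 ± 0.022, FDR = 3.83e-22). The responses differed by -0.11 ± 0.031 (FDR = 0.0116), which was not called with DESeq2 (FDR = 0.0676) or without any of the KO-TGF libraries (FDR between 0.164 and 0.190). KO was 1.11-fold lower with TGF-β (FDR = 7.88e-07), and in SD the log2 difference was -0.044 ± 0.022 (FDR = 0.0930). In SD it was called with library sizes alone (log2 −0.12, FDR = 2.92e-05), with DESeq2 (FDR = 0.0301), with only the groups compared (FDR = 0.0457) and without KO-SD replicate 2 or any of the KO-TGF libraries (FDR between 0.0169 and 0.0398).

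Ext2, its partner, was the steadiest. It had 123, 117 and 126 CPM in WT-SD, 124, 125 and 126 in WT-TGF, 126, 136 and 133 in KO-SD and 139, 144 and 138 in KO-TGF. The WT groups overlapped, and so did WT-SD and KO-SD. With TGF-β the log2 fold change was 0.030 ± 0.033 in WT (FDR = 0.418) and 0.096 ± 0.033 in KO (FDR = 0.0107), and both turned negative with library sizes alone, to −0.13 and −0.11 (FDR = 9.86e-04 and 0.00398). Without KO-SD replicate 1 the rise in KO was not called (FDR = 0.0682). KO exceeded WT 1.08-fold in SD (FDR = 0.00739) and 1.13-fold with TGF-β (FDR = 6.06e-05), and neither was called with library sizes alone (FDR = 0.452 and 0.202). The call in SD was also lost with only the groups compared (FDR = 0.0654), without WT-SD replicate 2 (FDR = 0.0824) and without KO-SD replicate 2 (FDR = 0.0501).

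**Figure D2:**
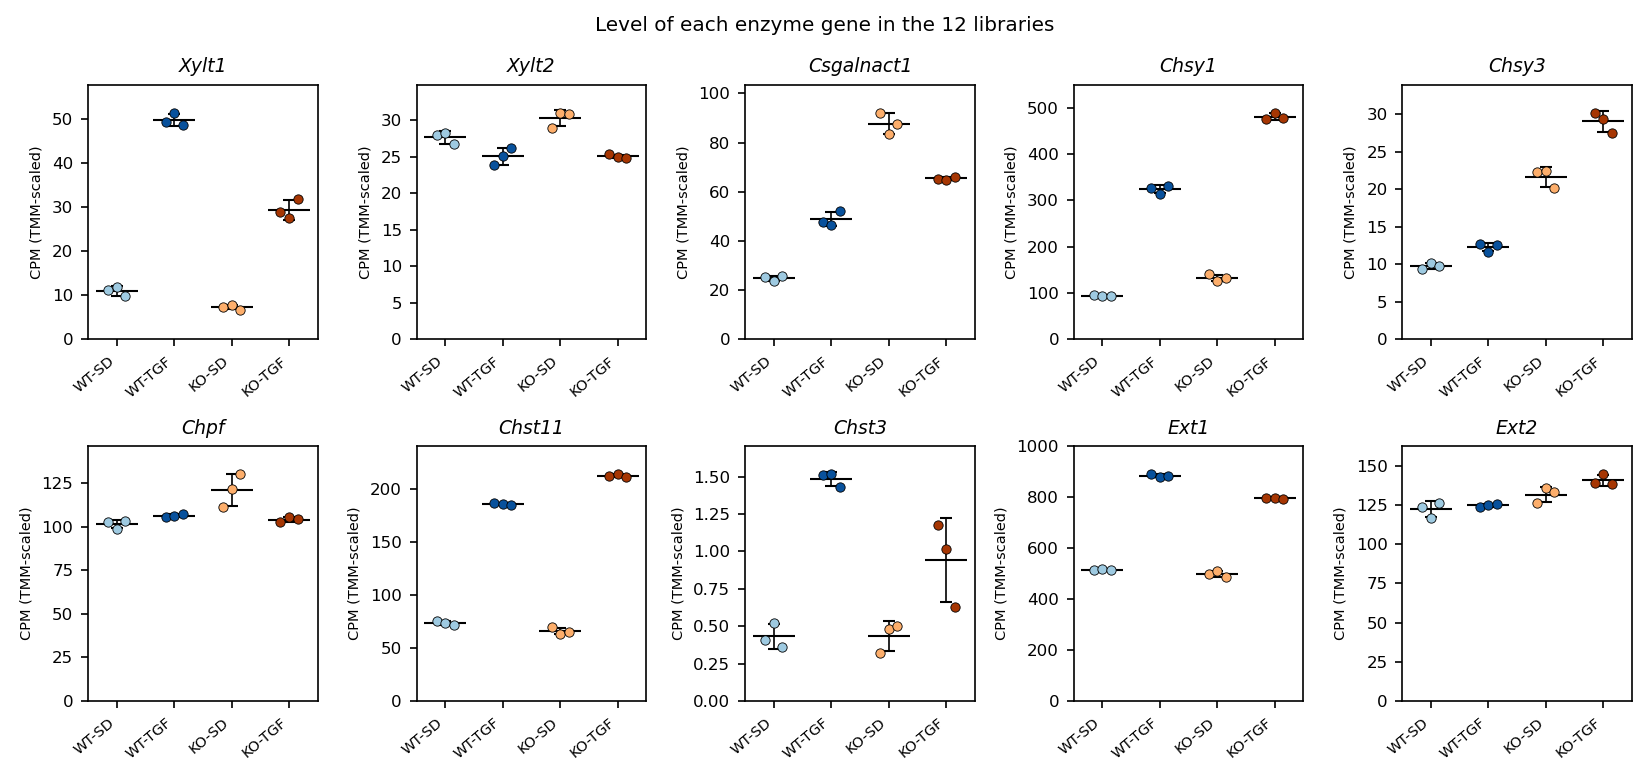
TMM-scaled CPM (y axis, from 0) of the 10 genes in the 12 libraries (points), with the mean and SD of each group of 3 (lines and bars). Xylt1, Chsy1, Chst11 and Ext1 lie highest in the TGF-β groups, Chsy3 in the KO groups, and Csgalnact1 in KO-SD, at 83.5 to 92.1 CPM.

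Of the 10 members, RefSeq promoter windows of GRCm38.p6, from 250 bases before to 50 after an annotated start, were given for 6: Chpf, Ext2, Chsy1, Chst3, Chst11 and Xylt2. The windows of Chsy1 and Chst11, which rose more than 2-fold with TGF-β in both genotypes, are shown with those of Chpf and Xylt2, which did not, since the SMAD factors activated by TGF-β bind CAGAC. Capitals mark CAGAC or its reverse complement GTCTG, and in Chsy1 also the E-box CACGTG.
Chsy1, chr7:66109242-66109541, plus strand: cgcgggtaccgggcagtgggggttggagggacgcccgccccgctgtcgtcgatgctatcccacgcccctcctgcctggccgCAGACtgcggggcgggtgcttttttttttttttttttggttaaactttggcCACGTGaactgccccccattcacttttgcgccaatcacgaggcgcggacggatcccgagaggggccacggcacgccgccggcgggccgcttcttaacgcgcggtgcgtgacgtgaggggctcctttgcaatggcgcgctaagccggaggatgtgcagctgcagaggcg
Chst11, chr10:82985247-82985546, plus strand: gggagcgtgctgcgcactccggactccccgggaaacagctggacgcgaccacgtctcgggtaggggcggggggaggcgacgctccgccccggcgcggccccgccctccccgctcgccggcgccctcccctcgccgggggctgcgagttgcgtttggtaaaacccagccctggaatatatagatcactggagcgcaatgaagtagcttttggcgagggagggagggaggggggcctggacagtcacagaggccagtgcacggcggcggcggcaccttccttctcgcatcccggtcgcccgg
Chpf, chr1:75479422-75479721, minus strand: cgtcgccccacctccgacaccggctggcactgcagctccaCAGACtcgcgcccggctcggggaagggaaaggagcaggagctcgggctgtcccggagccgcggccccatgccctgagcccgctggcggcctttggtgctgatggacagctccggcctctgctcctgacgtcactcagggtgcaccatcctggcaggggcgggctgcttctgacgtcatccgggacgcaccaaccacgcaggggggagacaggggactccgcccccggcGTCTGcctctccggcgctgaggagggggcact
Xylt2, chr11:94677444-94677743, minus strand: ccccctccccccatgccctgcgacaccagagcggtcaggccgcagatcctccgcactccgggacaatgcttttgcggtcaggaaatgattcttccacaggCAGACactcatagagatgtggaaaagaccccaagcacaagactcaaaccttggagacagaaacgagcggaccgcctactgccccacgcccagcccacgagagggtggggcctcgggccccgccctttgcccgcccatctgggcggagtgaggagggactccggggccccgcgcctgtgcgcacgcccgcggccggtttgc
On either strand, CAGAC matched 1 time in Chsy1, 2 times in Chpf, 1 time in Xylt2, 1 time in Chst3 and not in Chst11 or Ext2, and 49.6% of all 32851 promoter windows hold it. The letters thus stood in 2 of the 3 windows of genes that rose more than 2-fold and in 2 of the 3 others. The GC box GGGCGG, held by 35.7% of all windows, matched 2 times in Chsy1, 3 times in Chst11, 2 times in Chpf, 3 times in Xylt2, 1 time in Chst3 and not in Ext2. The E-box, in 7.15% of all windows, was in Chsy1 and Ext2, and the AP-1 letters TGANTCA, in 7.81%, were in none of the 6. No matches of different motifs overlapped, and matches are of letters only. The 4 windows shown have a GC content between 65.3% and 71.7%, beside a median of 52.7% over all windows.

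Between genotypes in SD, 6 of the 10 members were higher in KO and 2 lower, against 30.9% and 25.2% of all genes, and the members with fold change >2 upward were Csgalnact1 and Chsy3, against 3.20% of all genes. With TGF-β, 5 were higher in KO and 3 lower, against 27.2% and 27.8% of all genes, with Chsy3 past a fold change of 2, against 1.38% of all genes. Chsy1, Chsy3, Csgalnact1 and Ext2 were higher and Xylt1 lower in KO in both conditions, apart from the losses given above for Ext2. The interaction was called higher in KO for 1 member, Chst11, and lower for 3, Csgalnact1, Chpf and Ext1, against 8.67% and 16.6% of all genes. Comparisons of the 2 genotypes and of the 2 conditions share libraries and are not independent of each other.

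**Figure D3:**
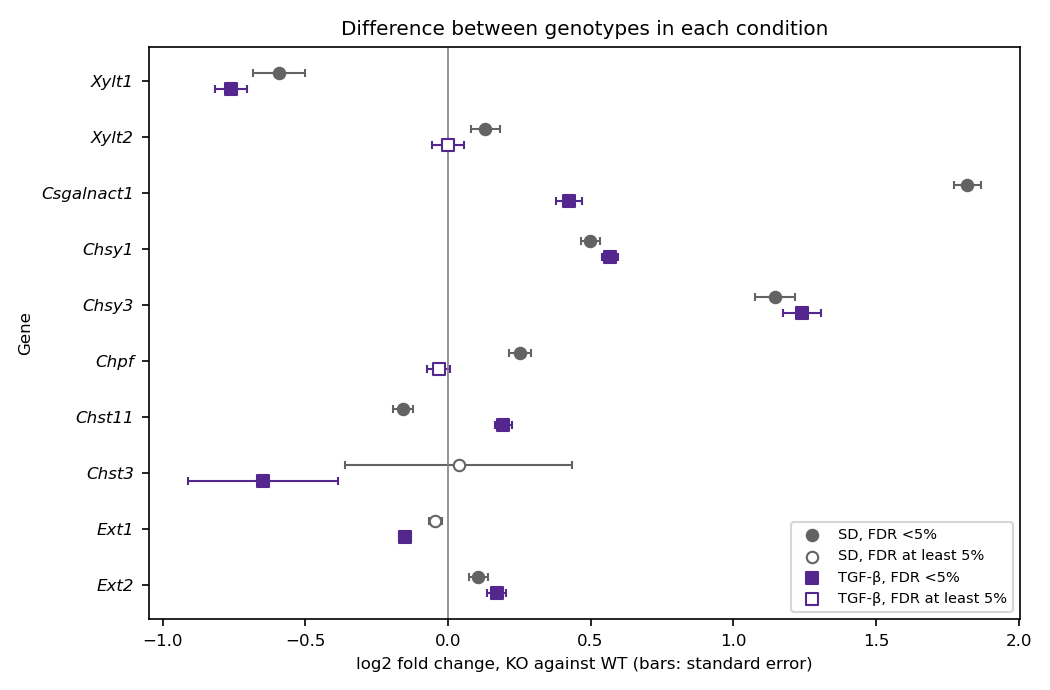
Log2 fold change of KO against WT (x axis) of each of the 10 genes (y axis) in SD (circles) and with TGF-β (squares), with bars for the standard error, and open symbols where FDR was at least 5%. Chsy3 lies near 1.2 in both conditions, Csgalnact1 falls from 1.82 in SD to 0.42 with TGF-β, and Xylt1 is negative in both.

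Markers of other glomerular and immune cells moved with genotype too. The summed level of the 12 macrophage markers was 38.9 to 42.5 CPM in WT-SD, 21.1 to 25.2 in WT-TGF, 8.36 to 9.91 in KO-SD and 2.62 to 2.89 in KO-TGF. In all KO-SD libraries 6 of the markers were at 0, Adgre1 among them, and most of the sum there was Cd14, with a mean of 6.75 CPM. The 7 podocyte markers summed to 549.8 to 559 CPM in WT-SD, 542 to 557 in WT-TGF, 297 to 301 in KO-SD and 276 to 293 in KO-TGF. The defining podocyte gene Nphs1 was at or near 0 throughout, while Wt1 had a mean of 98.9 CPM in WT-SD and 25.3 in KO-SD. The 9 tubular markers summed to 72.2 to 78.5 CPM in WT-SD, 18.0 to 19.5 in WT-TGF, 19.2 to 22.2 in KO-SD and 4.33 to 4.57 in KO-TGF. Aqp1 of this list went the other way in SD, with a mean of 4.10 CPM in WT-SD and 6.80 in KO-SD (log2 0.73, FDR = 1.57e-05). The 8 endothelial markers summed to 33.3 to 33.6, 20.5 to 22.8, 17.5 to 18.7 and 9.83 to 11.6 CPM in the same order of groups, nearly all of it Ehd3. The 10 mesangial and contractile markers summed to 2621 to 2772 CPM in WT-SD, 5811 to 5966 in WT-TGF, 5101 to 5279 in KO-SD and 11073 to 11151 in KO-TGF, mostly Acta2 and Tagln. Des of the same list was 14.4-fold lower in KO in SD (FDR = 2.77e-17) and 22.1-fold lower with TGF-β (FDR = 6.78e-16). Itga8, which did not pass the RPKM limit, was lower in KO with TGF-β (log2 -1.32, FDR = 6.09e-06 in the fit without that limit). The part of these differences in the members' values was not tested, and in such bulk libraries fewer cells of a type and less RNA per cell cannot be told apart.

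The balance between isoenzymes was read per exon length. By RPKM, Xylt1 made up 14.1% ± 0.832 (SD, n = 3) of the 2 xylosyltransferases in WT-SD, 45.1% ± 1.49 in WT-TGF, 9.06% ± 0.670 in KO-SD and 32.6% ± 1.85 in KO-TGF. The sum of both was 8.09 ± 0.320 RPKM in WT-SD, 11.5 ± 0.302 in WT-TGF, 8.38 ± 0.284 in KO-SD and 9.35 ± 0.204 in KO-TGF. By RPKM Xylt2 was thus the more abundant of the pair in all 4 groups, and the 2 genes came closest in WT-TGF. By mean CPM, which leaves exon length out, Xylt1 was instead the higher in WT-TGF (49.9 against 25.1) and KO-TGF (29.4 against 25.1). With TGF-β the Xylt1 share of RPKM rose by 31.0 points in WT and 23.5 in KO. Taken from counts, the rise was 38.1 and 34.5 points. A share within a library does not depend on the scaling between libraries.

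Csgalnact1 made up 31.7% ± 0.453 of Csgalnact1 and Csgalnact2, the other enzyme for the same step, in WT-SD, 48.8% ± 1.85 in WT-TGF, 58.6% ± 1.42 in KO-SD and 54.1% ± 1.27 in KO-TGF. It was the greater of the pair in all 6 KO libraries and in WT-TGF replicate 3, at 50.8%, and the lesser in the other WT libraries. Their summed RPKM was 15.4 ± 0.50 in WT-SD, 19.6 ± 0.648 in WT-TGF, 29.4 ± 1.81 in KO-SD and 23.8 ± 0.393 in KO-TGF. Chsy1 held 94.4% ± 0.322 of the RPKM of Chsy1 and Chsy3 in WT-SD, 97.9% ± 0.0452 in WT-TGF, 91.4% ± 0.632 in KO-SD and 96.6% ± 0.165 in KO-TGF. So Chsy3 remained a small part even where it was highest.

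Ext1 held 79.3% ± 0.697 of the RPKM of Ext1 and Ext2 in WT-SD, 86.6% ± 0.138 in WT-TGF, 77.5% ± 0.730 in KO-SD and 83.7% ± 0.304 in KO-TGF. Chst11 held between 99.3% and 99.6% of the RPKM of Chst11 and Chst3 in the 4 groups. Of the 20 comparisons of shares, 18 had no overlap of libraries, with p = 0.1 in an exact two-sided permutation test (adjusted p = 0.111), which is the smallest that 3 against 3 libraries allow and cannot reach 0.05. The exceptions were the Chst11 share with TGF-β in KO (exact permutation p = 0.3) and between genotypes in SD (exact permutation p = 0.6). How often other pairs of genes separate in this way was not counted, so this describes these pairs only.

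**Figure D4:**
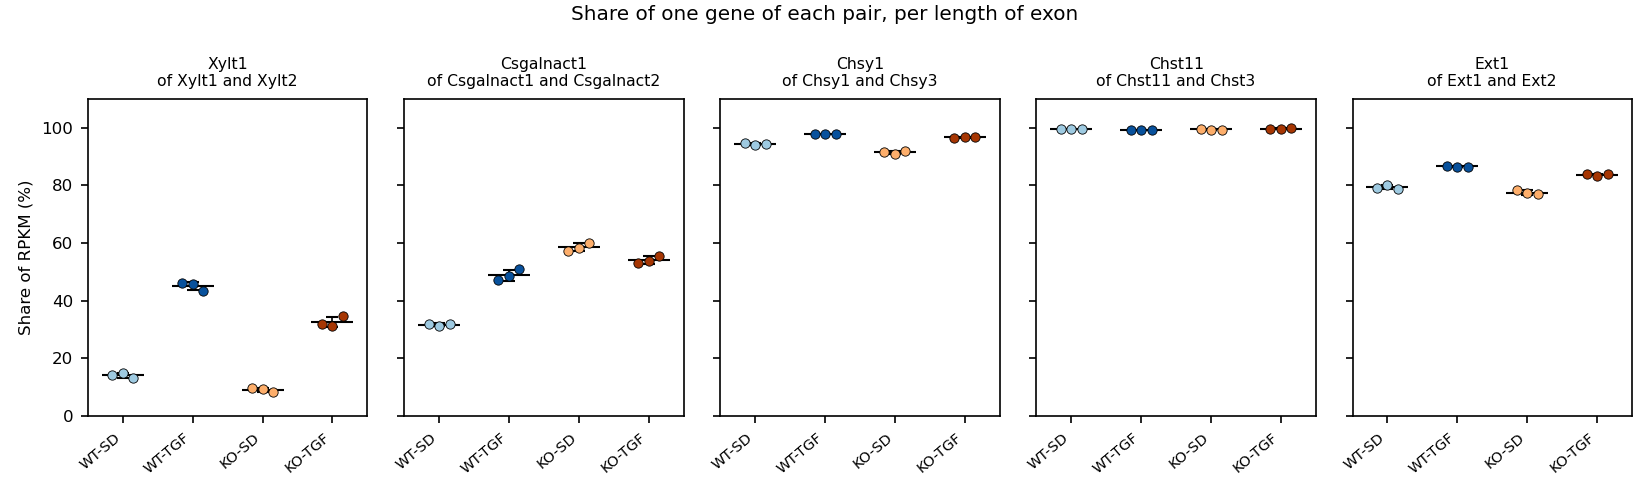
Share of RPKM in percent (y axis, from 0) that one gene takes of a pair of enzymes, in each of the 12 libraries (points) with the mean and SD of each group (lines and bars). The Xylt1 share runs from 9.06% in KO-SD to 45.1% in WT-TGF, and the Csgalnact1 share is above 50% in all KO libraries and, at 50.8%, in WT-TGF replicate 3.

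By mean RPKM in WT-SD, the members ran from Ext1 (63.8 ± 0.190) through Chpf (26.3 ± 0.651), Chsy1 (22.6 ± 0.489), Ext2 (16.7 ± 0.669), Chst11 (13.3 ± 0.357), Xylt2 (6.95 ± 0.210), Csgalnact1 (4.88 ± 0.216), Chsy3 (1.35 ± 0.0540) and Xylt1 (1.14 ± 0.111) to Chst3 (0.0664 ± 0.0124). In KO-TGF the order of the top was Chsy1 (115 ± 1.75) and Ext1 (98.8 ± 0.341), and Xylt1 stood at 3.05 ± 0.237. The groups followed no common order across members. Chsy1 and Chsy3 were lowest in WT-SD and highest in KO-TGF, Xylt1 and Ext1 were lowest in KO-SD and highest in WT-TGF, Chst11 ran from KO-SD to KO-TGF, and Csgalnact1 from WT-SD to KO-SD. Neighbouring groups did not overlap in these 6 genes. The share of all genes that separate in this way was not counted, so this describes the members only. In Xylt2 the KO-TGF and WT-TGF libraries overlapped, in Chpf WT-SD and KO-TGF, in Chst3 WT-SD and KO-SD, and in Ext2 WT-SD and WT-TGF.

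The 5 genes tested whose log2 CPM followed Xylt1 most closely over the 12 libraries were Ldlrad4, Cttnbp2nl, Bag3, Junb and Loxl1, with a Pearson r between 0.994 and 0.997. These points share groups and libraries, and the values are a description only. Junb, a subunit of the AP-1 factor, had a mean of 81.9 CPM in WT-SD, 203 in WT-TGF, 60.1 in KO-SD and 153 in KO-TGF. Loxl1, a lysyl oxidase that cross-links elastic fibres, had 333, 731, 284 and 588 CPM in the same order. Both had the group order of Xylt1, lowest in KO-SD and highest in WT-TGF, which follows from how they were picked.

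The members lie on 8 chromosomes of GRCm38.p6. Xylt1 is on chromosome 7, 117380979 to 117667630 on the plus strand, Xylt2 on chromosome 11, 94663845 to 94677518 on the minus strand and Csgalnact1 on chromosome 8, 68356781 to 68735621 on the minus strand. Chsy1 is on chromosome 7, 66109492 to 66173798 on the plus strand, Chsy3 on chromosome 18, 59175340 to 59411336 on the plus strand and Chpf on chromosome 1, 75474569 to 75479471 on the minus strand. Chst11 is on chromosome 10, 82984440 to 83195904 on the plus strand, Chst3 on chromosome 10, 60181527 to 60222114 on the minus strand, Ext1 on chromosome 15, 53068261 to 53346183 on the minus strand and Ext2 on chromosome 2, 93695631 to 93822568 on the minus strand. Counts are reads on the exons of these genes. Chsy1, Chst11, Csgalnact1 and Ext2 have annotated genes on the opposite strand, and reads were counted by strand. Xylt1 shares its strand with the unconfirmed transcript Gm45153 and Chst3 with the small RNA gene Gm22117.

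The other enzymes of the chain-building steps were read from lists of the pathway. Their counts stand beside all genes, where 36.0% rose and 36.4% fell with TGF-β in WT, and 34.9% and 39.1% in KO. With library sizes alone, 2641 of 11529 genes rose and 6056 fell in WT, and 2295 rose and 6717 fell in KO. The list counts in that setting are to be read beside these. The median log2 fold change of all genes was then −0.16 in WT and −0.23 in KO. Of the 7 genes for the linkage region, 5 rose and 2 fell with TGF-β in WT (median log2 0.24), or 3 and 3 with library sizes alone (median 0.077). B4galt7, which adds a galactose of the linker, had a mean of 18.8 CPM in WT-SD and 35.4 in WT-TGF. Pxylp1, the phosphatase that removes the phosphate from the xylose, fell 2.04-fold in WT (log2 -1.03 ± 0.049, FDR = 6.82e-18) and 2.01-fold in KO (FDR = 2.52e-16). Of the 6 genes that open and lengthen chondroitin, 4 rose and none fell in WT, and 3 rose and 3 fell in KO (medians 0.46 and 0.13). With library sizes alone 4 rose and 2 fell in WT, and the KO counts were again 3 and 3. The medians became 0.30 and -0.072, so that of KO changed sign, but both stayed above those of all genes. Of the 4 genes tested for heparan initiation and polymerization, 1 rose and 1 fell in WT, the latter being Extl2 (1.29-fold, FDR = 9.22e-09), and with library sizes alone 1 rose and 3 fell.

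Sulfation and its supply held changes as large as those of the members. Of 6 chondroitin and dermatan sulfotransferases tested, 4 rose and 1 fell with TGF-β in WT, beside 36.0% and 36.4% of all genes. With library sizes alone 3 rose and 2 fell, beside 2641 and 6056 of the 11529 genes. Ust, which sulfates the uronic acid, had a mean of 28.6 CPM in WT-SD and 124 in WT-TGF, a 4.34-fold rise (FDR = 1.53e-27), and rose 3.94-fold in KO (FDR = 4.24e-27). Chst7, a further C-type sulfotransferase at 0.763 to 2.89 mean CPM, fell 1.41-fold (FDR = 0.0125). Of 11 heparan-modifying genes tested, 5 rose and 4 fell in WT, and 7 rose and 3 fell in KO, beside 36.0% and 36.4% of all genes in WT and 34.9% and 39.1% in KO. With library sizes alone 4 rose and 6 fell in WT, and 5 and 5 in KO, beside the counts of all genes given above for that setting. Hs6st2, a heparan sulfotransferase, fell from a mean of 738 to 307 CPM in WT and from 746 to 363 in KO. Hs3st1, which completes the antithrombin-binding site of heparan sulfate, rose 2.45-fold in WT (FDR = 5.41e-08) from 1.59 CPM.

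Of the 12 genes for sugar nucleotides and sulfate donors, 7 rose and 1 fell with TGF-β in WT, and 6 rose and 1 fell in KO, beside 36.0% and 36.4% of all genes in WT and 34.9% and 39.1% in KO. With library sizes alone 6 rose and 4 fell in WT, and 5 and 6 in KO, beside the counts of all genes given above for that setting. The medians of 0.26 and 0.091 became 0.10 and -0.11 in that setting, beside −0.16 and −0.23 over all genes. Papss2, which makes the sulfate donor PAPS, had a mean of 22.0 CPM in WT-SD, 44.6 in WT-TGF, 32.6 in KO-SD and 57.2 in KO-TGF.

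Among the core proteins that carry the chains, 4 of 10 listed chondroitin and dermatan sulfate proteoglycans were tested. In each genotype 3 rose and 1 fell with TGF-β, also with library sizes alone. Of all genes, 36.0% rose and 36.4% fell in WT, and 34.9% and 39.1% in KO. Cspg4, the membrane proteoglycan NG2, had a mean of 39.7 CPM in WT-SD, 174 in WT-TGF, 95.5 in KO-SD and 486 in KO-TGF, and rose 4.40-fold in WT (FDR = 5.49e-30). Dcn, the small collagen-binding proteoglycan decorin, went the other way with TGF-β, with 9.83 CPM in WT-SD, 3.60 in WT-TGF, 59.3 in KO-SD and 18.8 in KO-TGF. All 4 were higher in KO in both conditions, with a median log2 fold change of 1.67 in SD and 1.39 with TGF-β. This was also so with library sizes alone, and of all genes 30.9% were higher in SD and 27.2% with TGF-β. Of 8 membrane heparan sulfate proteoglycans tested, 4 rose and 3 fell in WT (median log2 0.18), and 3 rose and 4 fell in KO (median -0.048), beside 36.0% and 36.4% of all genes in WT and 34.9% and 39.1% in KO. Sdc3 rose 1.61-fold (FDR = 2.65e-21) and Sdc4 fell 1.34-fold (FDR = 1.55e-14), both being syndecans.

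The lysosomal enzymes that take the chains apart fell with TGF-β. Of 13 tested, 12 fell and none rose in WT (median log2 -0.44), and all 13 fell in KO (median -0.67), beside 36.4% and 39.1% of all genes. With library sizes alone 13 fell in each genotype, beside 6056 of the 11529 genes in WT and 6717 in KO. Sgsh, a heparan sulfate sulfatase, had a mean of 60.5 CPM in WT-SD and 25.9 in WT-TGF, and 60.3 in KO-SD and 22.5 in KO-TGF. Hpse, the heparanase that cuts heparan chains, fell 3.62-fold in WT (FDR = 1.68e-10) and 2.80-fold in KO (FDR = 2.76e-07).

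Between genotypes in SD, all 6 genes that open and lengthen chondroitin were higher in KO (median log2 0.38), or 5 of 6 with library sizes alone, beside 30.9% of all genes. With TGF-β 5 were higher and none lower, or 3 and 1 with library sizes alone, beside 27.2% and 27.8% of all genes. Of the lysosomal enzymes, 6 were higher and 2 lower in SD, and 2 and 2 with TGF-β, beside 30.9% and 25.2% of all genes in SD and 27.2% and 27.8% with TGF-β. With library sizes alone these became 4 and 4 in SD and 1 and 8 with TGF-β. Of the heparan-modifying genes, 5 were higher and 3 lower in SD, and 7 and 4 with TGF-β, beside the same shares of all genes. With library sizes alone these became 3 and 4 in SD and 4 and 5 with TGF-β. In that setting 2444 of the 11529 genes tested were higher in SD and 4192 lower, and 1643 higher and 5409 lower with TGF-β. The counts with library sizes alone of the lists in this paragraph are to be read beside these. Glce, the epimerase that turns glucuronic into iduronic acid in heparan sulfate, was 1.89-fold higher in KO with TGF-β (FDR = 1.10e-21). Hs3st1 was 5.31-fold lower in KO in SD (FDR = 5.24e-08), at low levels, with a mean of 0.295 CPM in KO-SD and 1.59 in WT-SD.

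**Figure D5:**
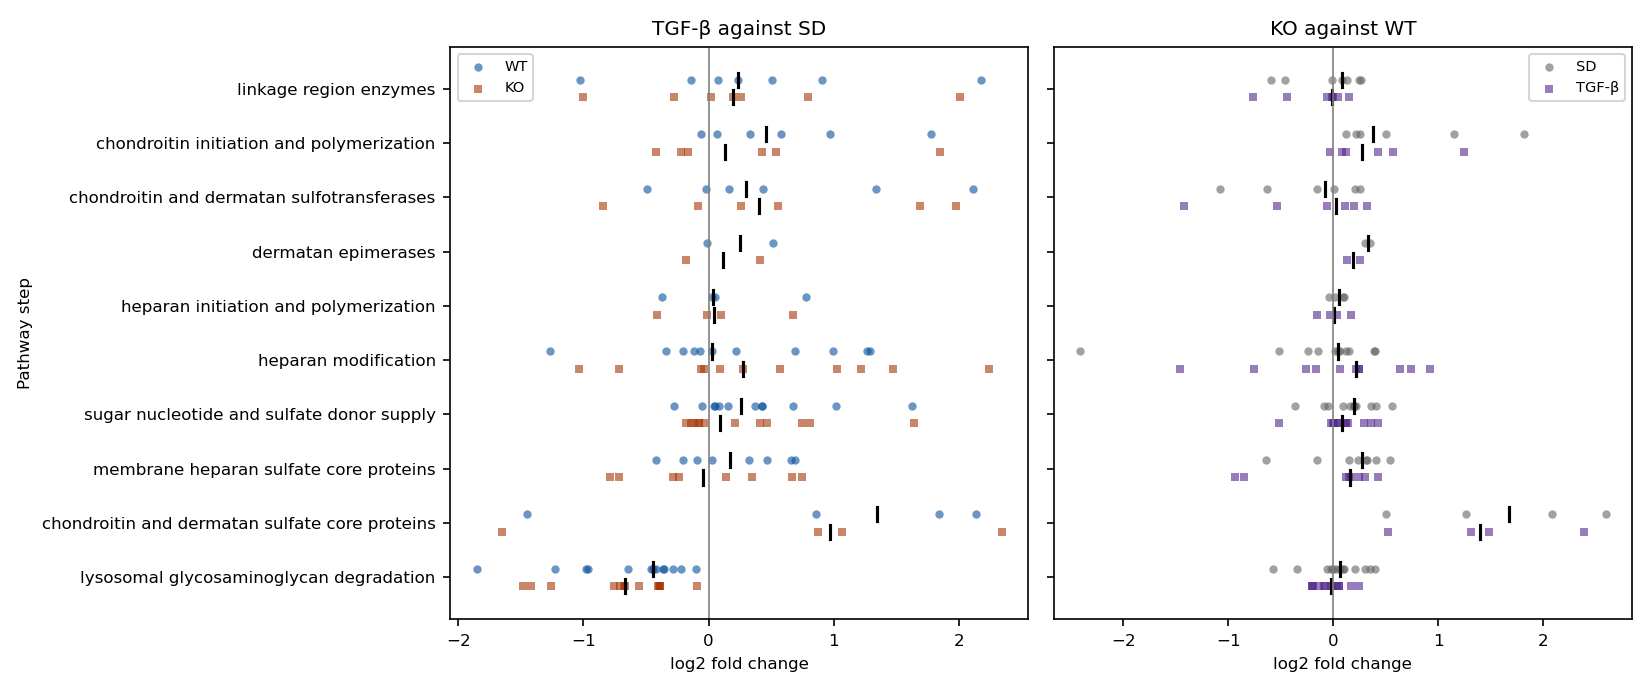
Log2 fold changes (x axes) of the genes tested in each step of the pathway (y axis), with TGF-β against SD in WT and KO (left) and for KO against WT in SD and with TGF-β (right). Points are genes and black ticks medians, and with TGF-β the lysosomal genes all lie under 0, whereas the 4 chondroitin and dermatan sulfate core proteins all lie above 0 between genotypes.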

How the data were processed

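RNA-seq was measured in 12 libraries of MMC, 3 for each of 4 groups taken from the sample labels. The authors prepared mRNA libraries, mapped the single-end reads with TopHat (genome mm10) and assigned them by strand to RefSeq genes with HTSeq, leaving out poor alignments. The deposited values are these raw counts, per gene and library. Lines that name no gene were left out of library sizes and tests: 10.3% to 15.4% of a library for reads outside exons, 11.2% to 11.7% for multiple alignments and 0.225% to 0.274% for ambiguous genes.

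Lengths were exon unions from GENCODE vM21 (24719 genes), and coordinates came from RefSeq GRCm38.p6, in which 24930 symbols matched, 199 matched by an older symbol and 101 did not. RPKM and CPM were computed from the counts. Genes above an RPKM of 1 in any library were scaled by TMM (factors 0.898 to 1.10) and tested in edgeR 4.0.16 (R 4.3.3) by the quasi-likelihood test, in one fit of all 12 libraries with a mean per group and no block, with Benjamini-Hochberg adjustment over all genes tested. Standard errors came from the same fits, and the 95% intervals of log2 fold changes from them. Shares of isoenzymes were compared by exact two-sided permutation tests with scipy 1.17.1. The tests were tried on simulated data.

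The alternatives were library sizes alone, DESeq2 1.42.0, no filter, a filter of CPM >1 in 3 or more libraries, a fit of the compared groups alone, a block by replicate number, and each of the 12 libraries left out. Shares of isoenzymes were also taken from counts in place of RPKM. All members are named in every contrast. Of each pathway list, the genes with the largest positive and negative log2 fold change at FDR <5% in a contrast could be named, besides the 5 genes most like Xylt1 and the marker genes. The members and lists were chosen with earlier results of these data known. The comparison of protein sequences that was planned was not made.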

Additional observations from a re-analysis of the deposited data

Results flagged for a closer look

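In each of the following the TGF-β response in the libraries labelled KO differed from that in WT by the interaction term of edgeR's quasi-likelihood test (FDR <5%), and no cause was tested. Among the members, the log2 response in KO minus that in WT was −1.40 for Csgalnact1, where WT rose and KO fell, −0.28 for Chpf, 0.35 for Chst11 and −0.11 for Ext1. The Csgalnact1, Chpf and Chst11 calls held in every alternative run, and that of Ext1 did not.

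Of all genes tested, the response in KO was called higher for 8.67% and lower for 16.6%. From each pathway list only the genes with the largest difference in each direction are named below. Others were called too, among them Hs6st1 (0.48), Hs2st1 (0.35) and Sdc4 (-0.29). Among the genes named, the difference was −0.77 for Vcan, the large matrix proteoglycan versican, which rose in both genotypes. It was 0.53 for Glce and −0.38 for the heparan endosulfatase Sulf2. For the core proteins it was −0.69 for the glypican Gpc6 and 0.21 for Cspg4. It was −0.17 for the dermatan epimerase Dsel, −0.23 for the PAPS synthase Papss1 and −0.29 for the lysosomal glucuronidase Gusb.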

How the results depend on the processing

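Of 890 comparisons of a member's value with an alternative, 834 kept direction and call, 28 lost the call, 12 gained it and 16 changed direction. With library sizes alone, log2 fold changes with TGF-β turned to −0.091 for Chpf and −0.13 for Ext2 in WT and to −0.11 for Ext2 in KO, and that of Chst3 between genotypes in SD to −0.065. The members that fell in WT were then 3, not 1, and with no filter 0. All genes that rose with TGF-β numbered 2641, not 4151, in WT (6056, not 4198, fell) and 2295, not 4027, in KO (6717, not 4510, fell). Between genotypes with TGF-β 1643, not 3141, were higher and 5409, not 3200, lower, and in SD 2444, not 3565, were higher and 4192, not 2907, lower. By construction this setting leaves out the TMM factors.

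The near-zero difference of Xylt2 between genotypes with TGF-β was 0.015 with DESeq2, 0.00607 with the CPM filter and 0.012 with no filter. Leaving out each library in turn, it ran from −0.037 to 0.032, Chst3 between genotypes in SD from −0.082 to 0.22, the members that fell in WT from 0 to 1 (0 without WT-SD replicate 2 or WT-TGF replicate 1), and the members with a higher response in KO from 1 to 2 (2 without KO-SD replicate 1, when Chsy1 joined Chst11). The cause was not tested.

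Samples of the same number deviated from their group means with a correlation between −0.026 and 0.076, and those of different numbers between -0.091 and 0.043. Correlations this weak gave no clear pairing by number, but they cannot exclude it. With the replicate block the Xylt2 difference was 0.000189, and no member's call changed. Counts limit Chst3 most, with 7 to 34 per library.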
